A study of Rattus norvegicus with 6 samples.

Results

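The cytosolic ribosomal protein genes were measured in rat liver by 57 probe sets of an Affymetrix rat genome array, which stand for 50 genes. They were the probe sets with 1 gene symbol in the array's annotation, that symbol beginning with Rpl, Rps, Rplp or Rpsa in the numbered forms of the family, without the ribosomal S6 kinases. They made up 57 of 31042 probe sets, with 38 probe sets (34 genes) for the large subunit and 19 probe sets (16 genes) for the small subunit. The rule used symbols and no measured value, though the members were chosen with earlier results of these data known. It brought in members that are not standard subunits, namely the paralogs Rpl3l, Rpl7l1, Rpl26l1, Rpl39l1, Rps27l and Rps4y2 and the pseudogene names Rpl37-ps2 and Rps4x-ps1. Another 35 probe sets that match several ribosomal protein symbols were left out of the members.

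Total RNA of liver was hybridised on 6 arrays, 2 in each of 3 groups. Post-hyperglycemia arrays came from BBDR.lyp/lyp rats labelled 55 days old, and pre-hyperglycemia arrays came from BBDR.lyp/lyp rats labelled 50 days old. The BBDR.+/+ arrays came from rats labelled 55 days old, and all ages carry a tolerance of 5 days. Only the pre-hyperglycemia rats were labelled 50 days old. Age therefore cannot be told apart from hyperglycemia in the comparison with post-hyperglycemia, or from genotype in the comparison with BBDR.+/+. BBDR.lyp/lyp rats are congenic and homozygous for the lymphopenia mutation on the BioBreeding diabetes-resistant background, lose their beta cells to insulitis and become suddenly hypoinsulinemic, while BBDR.+/+ rats remain free of diabetes. The labels describe a fast before the liver was taken and the methods describe free access to food, so the feeding state is not settled. The methods describe liver taken at several ages from a smaller number of the rats, and which of these arrays share a rat is not given, so p-values measure only the spread between these samples.

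Ribosomal proteins assemble with ribosomal RNA in the nucleolus into the small subunit, which decodes the messenger RNA, and the large subunit, which forms the peptide bond. Their messenger RNAs are abundant in the liver, and in mammals they typically begin with a C followed by an unbroken run of pyrimidines, the 5′ terminal oligopyrimidine or TOP motif. Through this motif nutrients and insulin act on their translation by way of mTOR, a control that changes how ribosomes load the messenger and need not change its amount, which is what an array measures.

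RefSeq promoters (build GRCr8, 250 bases before to 50 bases after the annotated start) were found for 43 of the 50 genes. A C at the start followed by at least 4 further C or T bases was present in 12 of the 43 (27.9%) and in 2.63% of 27457 promoters of all genes. A run of at least 8 C or T on the coding strand within 25 bases of the start was present in 30 of the 43 (69.8%), against 19.3% of all promoters. Windows of 30 bases around the start are printed for 3 genes with the TOP form, then for 4 genes that the results turn on or that are paralogs, with the C or T run that begins at the start base in capitals.
Rplp0 (chr12:46718376-46718405, minus strand): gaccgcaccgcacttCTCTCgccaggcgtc
Rpl19 (chr10:83519049-83519078, plus strand): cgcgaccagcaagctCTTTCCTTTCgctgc
Rpl22 (chr5:168117946-168117975, plus strand): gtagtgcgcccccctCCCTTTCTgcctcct
Rps24 (chr16:96502-96531, plus strand): tgagcggtcctctttTCCTCCTTTacagct
Rps4y2 (chr4:183000898-183000927, plus strand): gcgcgcagctctcctCactcgcttgtgctc
Rpl7l1 (chr9:21695703-21695732, plus strand): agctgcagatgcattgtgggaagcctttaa
Rps27l (chr8:76443643-76443672, plus strand): gtttattcatttgtcattatttgtggtgtc
The first 3 begin with C and continue in pyrimidines. The run of Rps24 begins with T at the annotated base, that of Rps4y2 ends after its first base, and Rpl7l1 and Rps27l have none at that base. The letters CCGGAA, searched on both strands in the 300 bases, were present in 39.5% of the members' promoters and 15.8% of all promoters. For AAGATGG the shares were 18.6% and 7.30%. TATAAA was present in 6 of the 43 promoters and in 14.3% of all. These matches describe the annotated starts and are not measurements of these livers.

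The hepatocyte markers were bright on all 6 arrays, with albumin at 14.60 to 14.62 on the log2 scale and summed log2 signals over 8 genes of 107.2 and 107.6 post-hyperglycemia, 107.8 and 108.0 pre-hyperglycemia and 108.1 and 108.3 in BBDR.+/+. Of the 8, Tat, of tyrosine breakdown, was called lower post-hyperglycemia than in BBDR.+/+ (-0.88, adjusted p = 0.0115, limma), which did not hold without post-hyperglycemia replicate 1 (-0.67) or BBDR.+/+ replicate 2 (-0.75). Gimap5, the gene of the lyp locus, stood at 5.71 and 5.91 post-hyperglycemia, 5.52 and 5.85 pre-hyperglycemia and 6.43 and 6.45 in BBDR.+/+. limma called it lower in both, by -0.63 post-hyperglycemia (adjusted p = 0.0191) and by -0.76 pre-hyperglycemia (adjusted p = 0.0284) against BBDR.+/+. The probes were not placed on the transcript, and the values were not used as a check of the genotype. The control transcripts of the array had a larger 3′ minus 5′ difference in the post-hyperglycemia arrays than in the others. The 3′ minus 5′ difference of beta-actin was 2.11 and 2.04 (log2) post-hyperglycemia, 1.51 and 1.32 pre-hyperglycemia and 1.36 and 1.12 in BBDR.+/+, and that of GAPDH was 1.37 and 1.33, 0.67 and 0.55, and 0.72 and 0.44 in the same order. All 6 Kupffer cell markers were higher post-hyperglycemia than in BBDR.+/+ (3 called by limma, none of which held without BBDR.+/+ replicate 2), with summed log2 signals of 60.9 to 61.3 post-hyperglycemia, 60.6 to 60.8 pre-hyperglycemia and 58.9 to 59.1 in BBDR.+/+. All 5 endothelial markers were also higher than in BBDR.+/+, post-hyperglycemia (median 0.20, Pecam1 called at 0.49 and lost without any of the 4 arrays compared, at 0.47 to 0.51) and pre-hyperglycemia (median 0.29, 0 called by limma and 3 at an unadjusted p under 0.05). Of 8 listed Kupffer cell markers 6 were measured. Over all probe sets, limma called 1.89% higher post-hyperglycemia than in BBDR.+/+, and 6.43% were higher pre-hyperglycemia at an unadjusted p under 0.05. Of 8 T cell markers, 7 were lower and 1 higher post-hyperglycemia than in BBDR.+/+ (median -0.17). limma called 0 of them, and 2 were lower at an unadjusted p under 0.05, beside 8.98% of all probe sets. The part of these cell types in the results was not tested. In a whole liver, fewer cells of a type and less RNA per cell cannot be told apart.

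As a family, the ribosomal protein messengers lay to both sides of their BBDR.+/+ level after the onset of hyperglycemia. Differences follow the array labels as post-hyperglycemia minus the other group. Cdkn1a, on the study's list of insulin- and glucose-regulated genes, was printed as lower in both of its comparisons. By the labels its brighter probe set was higher in both, by 0.79 and 0.77 on the log2 scale. Other genes of that list that were checked also had a probe set with the reverse of the printed sign, but their values are not given here. The direction of the differences given here therefore rests on the labels. The 57 log2 fold changes of post-hyperglycemia against BBDR.+/+ had a median of -0.0016, a middle range of -0.08 to 0.10 and extremes of -0.27 and 0.51, with 28 above 0 and 29 below. The median over all probe sets was 0.01, with a middle range of -0.11 to 0.14. limma called 1 member higher (Rps24) and 0 lower, at a Benjamini-Hochberg adjusted p under 0.05 over all 31042 probe sets, where 5.15% of all probe sets were called (1.89% higher and 3.26% lower). With an unadjusted p under 0.05 in place of it, 5 members were higher and 2 lower, against 19.7% of all probe sets (10.7% higher and 8.98% lower). The 2 arrays of each group did not overlap for 33 members (57.9%), 17 above and 16 below, and for 48.8% of all probe sets (26.7% above and 22.1% below). For the 56 members not called, the 95% intervals lay between -0.55 and 0.59, and 49 of them lay within 0.5 of 0 on the log2 scale.

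Against pre-hyperglycemia the median of the family in the post-hyperglycemia livers was -0.05 (middle range -0.13 to 0.06), with 22 above 0 and 35 below, beside a median of 0.01 over all probe sets. It was -0.0084 with quantile normalization and -0.01 without post-hyperglycemia replicate 2. limma called 1 member higher (Rps24) and 1 lower (Rps4y2), where 2.18% of all probe sets were called (0.718% higher and 1.46% lower). With an unadjusted p under 0.05 in place of it, 2 were higher and 3 lower, against 14.9% of all probe sets (7.29% higher and 7.65% lower). Both post-hyperglycemia arrays lay below both pre-hyperglycemia arrays for 25 members and above them for 10, so that the groups did not overlap for 61.4% of the members. Over all probe sets they did not overlap for 44.5%, with 20.9% below and 23.6% above. The size of the shift was 0.05, while the medians of replicate arrays around the members' own means differed with an SD of 0.03. The 55 intervals of members not called lay between -0.58 and 0.69, and 51 of them lay within 0.5 of 0.

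Over all probe sets, the comparison of pre-hyperglycemia with BBDR.+/+ livers had the fewest calls of the 3. The members' median was 0.04 (middle range 0.00091 to 0.08), with 43 members above 0 and 14 below, against -0.0034 over all probe sets. This direction did not hold with the arrays centred on the brightest 30% of other probe sets, where the median was -0.02. limma called 1 member higher (Rps4y2) and 0 lower, where 0.718% of all probe sets were called (0.464% higher and 0.254% lower). The same member was the only one at an unadjusted p under 0.05, against 11.4% of all probe sets (6.43% higher and 4.95% lower). The groups did not overlap for 23 members (40.4%), 17 above and 6 below, and for 42.6% of all probe sets (21.6% above and 21.0% below). The 3 comparisons share their arrays in pairs, so their values are not independent of each other.

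**Figure D1:**
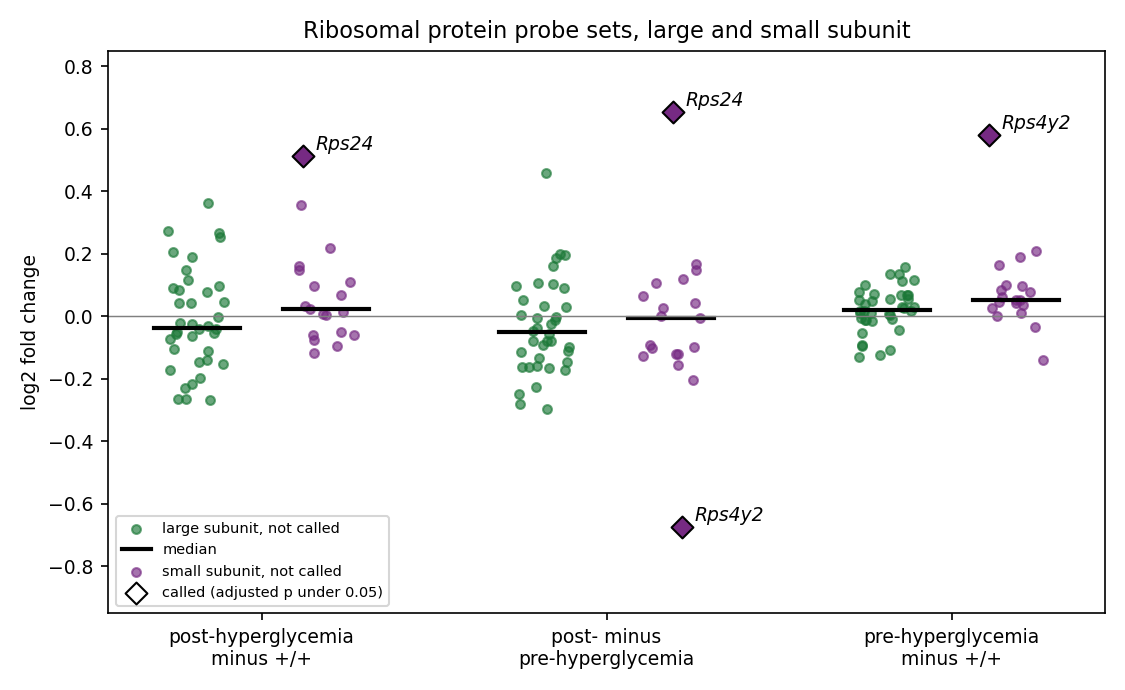
Log2 fold change (vertical axis) of each ribosomal protein probe set in the 3 comparisons, with 38 points for the large subunit (green) and 19 for the small subunit (purple), black lines at the medians and black-edged diamonds for probe sets that limma called. The medians lie between -0.05 and 0.05, and the called probe sets, all of the small subunit, lie apart from the rest.

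The medians of the large and the small subunit lay close together. Post-hyperglycemia against BBDR.+/+, the large subunit had a median of -0.04 with 15 of 38 probe sets above 0, and the small subunit a median of 0.02 with 13 of 19 above 0. Against pre-hyperglycemia the medians were -0.05 (13 of 38 above 0) and -0.0048 (9 of 19), and for pre-hyperglycemia against BBDR.+/+ they were 0.02 (26 of 38) and 0.05 (17 of 19). The difference between the subunits was not tested.

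The called members were all dim. A total of 40 probe sets (38 genes) had a mean of at least 10 on the log2 scale, and the other 17 probe sets held every called member. Of the 40, limma called 0 in any of the 3 comparisons. At an unadjusted p under 0.05 there were 2 higher and 2 lower, 0 higher and 2 lower, and 0 and 0. Over all probe sets limma called 5.15%, 2.18% and 0.718%, and 19.7%, 14.9% and 11.4% had an unadjusted p under 0.05. Of the 1828 other probe sets with such a mean, it called 29 higher and 56 lower, 16 and 28, and 10 and 10. With shares this small, 0 of 40 does not set the bright members apart. Their medians were -0.02 (post-hyperglycemia against BBDR.+/+), -0.08 (against pre-hyperglycemia, 28 of 40 below 0) and 0.04 (pre-hyperglycemia against BBDR.+/+). Within the large subunit 20 of 26 bright probe sets were below 0 against pre-hyperglycemia. The 1828 other probe sets of the same brightness also had a median below 0 there, at -0.04, with 1104 of them below 0. The 35 ribosomal protein probe sets with several symbols had medians of 0.08, -0.03 and 0.09 in the 3 comparisons. limma called 0 of them, and 3, 3 and 1 had an unadjusted p under 0.05, beside the shares over all probe sets just given.

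**Figure D2:**
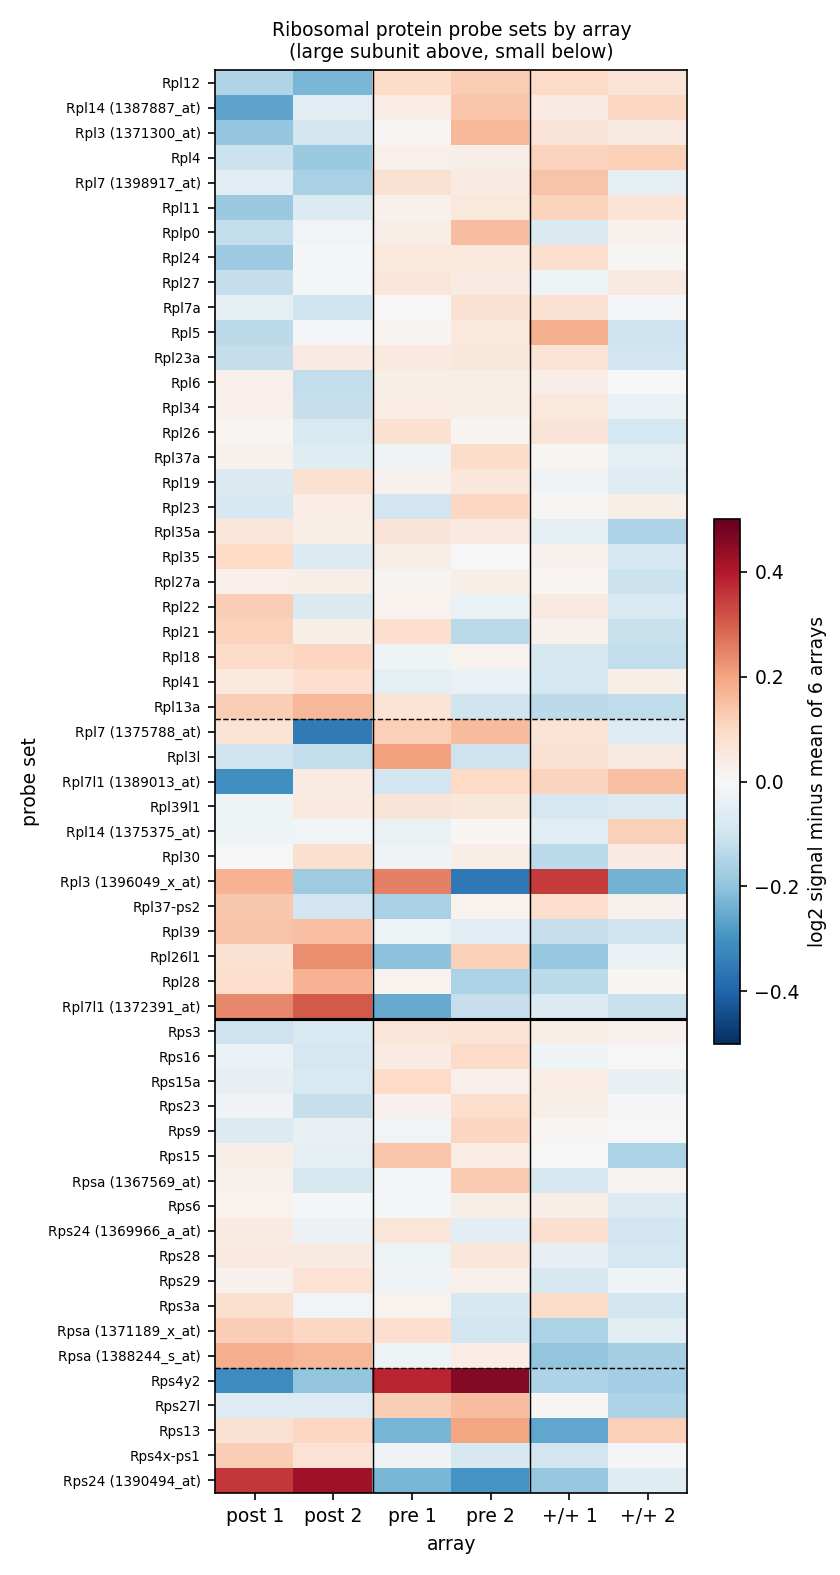
Log2 signal of each of the 57 ribosomal protein probe sets (rows) on each of the 6 arrays (columns), minus its mean over the arrays, with blue below and red above. Large subunit probe sets stand above the solid line and small subunit ones below it, with those of a mean under 10 below each dashed line, where Rps4y2 and 1 probe set of Rps24 carry the strongest colours.

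Among the proteins of the large subunit, Rplp0, the base of the stalk that recruits translation factors, had 12.28 and 12.39 post-hyperglycemia, 12.44 and 12.56 pre-hyperglycemia and 12.33 and 12.43 in BBDR.+/+. The post-hyperglycemia arrays lay below the pre-hyperglycemia ones and overlapped those of BBDR.+/+, with log2 fold changes of -0.16 and -0.04 that limma did not call. Rpl5 and Rpl11, which carry the 5S ribosomal RNA into the subunit and bind Mdm2 when ribosome assembly is disturbed, differed by -0.10 and -0.22 against BBDR.+/+ and by -0.10 and -0.16 against pre-hyperglycemia. Rpl11 had 12.05 and 12.17 post-hyperglycemia, 12.26 and 12.29 pre-hyperglycemia and 12.35 and 12.30 in BBDR.+/+. The post-hyperglycemia arrays of Rpl11 were the lowest of the 6, but the difference was not called (adjusted p = 0.278 against BBDR.+/+, limma). A control probe set named for the 5S RNA had 7.56 and 7.48 post-hyperglycemia, 7.22 and 7.53 pre-hyperglycemia and 7.11 and 7.23 in BBDR.+/+, with overlap between post- and pre-hyperglycemia. Whether its signal follows the amount of 5S RNA was not tested.

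Rpl3 and Rpl4 belong to the core around the peptidyl transferase centre and the exit tunnel. Rpl4 had 11.92 and 11.84 post-hyperglycemia, 12.05 and 12.05 pre-hyperglycemia and 12.14 and 12.14 in BBDR.+/+, with a difference of -0.26 against BBDR.+/+ (SE 0.10, adjusted p = 0.169, limma). The 3 groups did not overlap for Rpl4. The bright Rpl3 probe set differed by -0.20 and -0.23 (against BBDR.+/+ and pre-hyperglycemia), and its dim probe set of the x type, which spread from 7.16 to 7.77 in pre-hyperglycemia alone, by -0.06 and 0.05. Rpl12, next to the stalk, had 11.79 and 11.72 post-hyperglycemia, 12.03 and 12.07 pre-hyperglycemia and 12.04 and 12.01 in BBDR.+/+. Both post-hyperglycemia arrays were the lowest, and the differences of -0.27 and -0.30 were not called (adjusted p = 0.164 and 0.180, limma).

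Other members of the large subunit lay on the upper side. Rpl13a, known from interferon-gamma-activated translational silencing as well as from the ribosome, had 12.01 and 12.05 post-hyperglycemia, 11.95 and 11.78 pre-hyperglycemia and 11.75 and 11.76 in BBDR.+/+. Against BBDR.+/+ it differed by 0.27 (limma, adjusted p = 0.181, SE 0.11), without overlap. Rpl39, a small protein of the exit tunnel, differed by 0.25 and 0.19 and Rpl18 by 0.20 and 0.10 against BBDR.+/+ and pre-hyperglycemia. Rpl41, the shortest ribosomal protein, differed by 0.10 and 0.11, and Rpl22, whose gene has the TOP start printed above, by 0.04 and 0.03. Of the paralogs, Rpl26l1, close in sequence to Rpl26, differed by 0.27 and 0.20, and Rpl3l, which takes the place of Rpl3 in muscle, by -0.17 and -0.16. None of these was called. With a variance prior that follows intensity limma called Rpl12 and Rpl4 lower and Rpl13a higher than in BBDR.+/+, and Rpl12 lower than in pre-hyperglycemia.

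In the small subunit, Rps6, the substrate of the S6 kinases downstream of mTOR, was nearly level. It had 12.62 and 12.60 post-hyperglycemia, 12.60 and 12.64 pre-hyperglycemia and 12.64 and 12.54 in BBDR.+/+. Its log2 fold changes were 0.02 (95% interval -0.20 to 0.24) against BBDR.+/+ and -0.0048 (-0.23 to 0.22) against pre-hyperglycemia. The array reads the messenger and not the phosphorylation of the protein. The p90 ribosomal S6 kinase genes, which share the Rps6 stem and are not members, had medians of 0.29 and 0.12 over 5 genes. limma called 0 of them, and 3 and 1 were higher at an unadjusted p under 0.05, beside 10.7% and 7.29% of all probe sets. Rps3, at the entry of the messenger channel, differed by -0.12 and -0.16, Rps23, near the decoding centre, by -0.08 and -0.12, and Rps29 by 0.10 and 0.04. Rps27l, a paralog of Rps27 and in human cells a target of p53, had 6.96 and 6.96 post-hyperglycemia, 7.15 and 7.18 pre-hyperglycemia and 7.04 and 6.87 in BBDR.+/+. Pre-hyperglycemia arrays were the highest, with a log2 fold change of 0.21 against BBDR.+/+ that was not called (adjusted p = 0.491, limma).

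Rpsa, which is a protein of the small subunit and is also known as the laminin receptor, was measured by 3 probe sets that did not move alike. The bright probe set 1388244_s_at had 12.20 and 12.18 post-hyperglycemia, 11.99 and 12.05 pre-hyperglycemia and 11.82 and 11.85 in BBDR.+/+, higher by 0.36 on the log2 scale against BBDR.+/+ (adjusted p = 0.0677, limma). The 3 groups did not overlap on it, and limma called it with only the top 60% of probe sets by mean (adjusted p = 0.0376) and with a variance prior that follows intensity (adjusted p = 0.00402). The probe set 1371189_x_at differed by 0.22 and 1367569_at by 0.0039. The suffixes s and x mark probes that can bind other sequences, and Rpsa has many processed pseudogenes.

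Rps24, a small subunit protein mutated in a form of human Diamond-Blackfan anemia, held the only member probe set that limma called higher post-hyperglycemia, and it did so against both other groups. Probe set 1390494_at had 6.13 and 6.20 post-hyperglycemia, 5.55 and 5.48 pre-hyperglycemia and 5.59 and 5.72 in BBDR.+/+. Both post-hyperglycemia arrays lay above the other 4. This probe set rose by 0.51 on the log2 scale against BBDR.+/+ (limma, adjusted p = 0.0186, SE 0.10) and by 0.65 against pre-hyperglycemia (adjusted p = 0.0118, SE 0.10). The other probe set of the gene, 1369966_a_at, was far brighter and level, with 12.34 and 12.27 post-hyperglycemia, 12.36 and 12.24 pre-hyperglycemia and 12.38 and 12.20 in BBDR.+/+, and log2 fold changes of 0.01 and 0.0023. The mean of both probe sets gave 0.26 and 0.33 and was not called (adjusted p = 0.103 and 0.0822). The first call was lost without either post-hyperglycemia array (0.55 without replicate 1 and 0.48 without replicate 2) or either BBDR.+/+ array (0.45 and 0.58). The second was lost without post-hyperglycemia replicate 1 (0.69) or pre-hyperglycemia replicate 2 (0.62). The arrays with this rise are also those with the largest 3′ minus 5′ difference of the control transcripts. With that difference as a covariate, the values were 0.73 and 0.84 and not called. No post-hyperglycemia array shared its covariate range with another group.

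Rps4y2, a paralog of the small subunit protein Rps4x, was high in pre-hyperglycemia livers alone, the only group labelled 50 days old. RefSeq places the rat gene on chromosome 4. The probe set had 6.61 and 6.72 post-hyperglycemia, 7.30 and 7.38 pre-hyperglycemia and 6.77 and 6.75 in BBDR.+/+. Both pre-hyperglycemia arrays lay above the other 4. The gene fell by 0.67 post-hyperglycemia against pre-hyperglycemia (SE 0.10, adjusted p = 0.00975, limma) and was higher by 0.58 in pre-hyperglycemia than in BBDR.+/+ (SE 0.10, adjusted p = 0.0352). Post-hyperglycemia and BBDR.+/+ differed by -0.09 (adjusted p = 0.679). Leaving out post-hyperglycemia replicate 1 (-0.62) or pre-hyperglycemia replicate 2 (-0.64) ended the first call, and leaving out any of the 4 arrays compared ended the second (0.54 to 0.62), as did centring on the brightest 30% of other probe sets (0.52, adjusted p = 0.0566). Erythroid markers moved the same way. Of 7 listed, 5 were measured, all 5 of them higher in pre-hyperglycemia than in BBDR.+/+ (median 0.32, with Alas2, of heme synthesis, called at 0.56 and not called without any of the 4 arrays compared, at 0.54 to 0.58) and all 5 lower post-hyperglycemia than in pre-hyperglycemia (median -0.33, 0 called by limma and 3 at an unadjusted p under 0.05). Their summed log2 signal was 37.4 and 37.9 post-hyperglycemia, 39.0 and 39.9 pre-hyperglycemia and 37.8 and 37.8 in BBDR.+/+. Over all probe sets, 7.65% were lower post- than pre-hyperglycemia at an unadjusted p under 0.05. Markers of stellate cells, the collagen-forming cells of the liver, had summed signals of 43.8 and 44.1 post-hyperglycemia, 44.8 and 45.1 pre-hyperglycemia and 43.1 and 43.5 in BBDR.+/+. These 6 did not all move 1 way. Post- against pre-hyperglycemia, 5 were lower and 1 higher (median -0.17). For pre-hyperglycemia against BBDR.+/+, 4 were higher and 2 lower (median 0.28). Of their 6, Col1a1 was called lower post-hyperglycemia than pre-hyperglycemia (-0.51, lost without any of the 6 arrays, at -0.58 to -0.45) and higher in pre-hyperglycemia than in BBDR.+/+ (0.60, lost without any of the 4 compared, at 0.59 to 0.62). These values are of the brightest Col1a1 probe set, with a mean of 7.94. Its other probe set, with a mean of 7.40, differed by -0.13 post- against pre-hyperglycemia (adjusted p = 0.641, limma). That probe set was called higher than in BBDR.+/+ post-hyperglycemia (0.41, adjusted p = 0.0476) and pre-hyperglycemia (0.54, adjusted p = 0.0487). The 4 cholangiocyte markers had medians of -0.13 post-hyperglycemia against pre-hyperglycemia and 0.20 pre-hyperglycemia against BBDR.+/+. limma called 0 of them, and 0 and 1 had an unadjusted p under 0.05, beside 14.9% and 11.4% of all probe sets. The part of erythroid, stellate or cholangiocyte RNA in the Rps4y2 values was not tested.

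Rpl7l1, a paralog of Rpl7 that in yeast corresponds to an assembly factor and not to a protein of the finished ribosome, lay just outside the threshold. Probe set 1372391_at had 9.26 and 9.33 post-hyperglycemia, 8.77 and 8.90 pre-hyperglycemia and 8.95 and 8.91 in BBDR.+/+, with both post-hyperglycemia arrays above the other 4. Its log2 fold changes were 0.36 against BBDR.+/+ (limma, adjusted p = 0.0769, SE 0.10) and 0.46 against pre-hyperglycemia (adjusted p = 0.0513, SE 0.10). The second was called under 5 of the alternatives, at adjusted p values of 0.0120 to 0.0475, and the first under 2 of them. The mean of both probe sets gave 0.05 and 0.16 and was not called (adjusted p = 0.829 and 0.477, limma). With the 3′ minus 5′ covariate the values of 1372391_at were 0.48 and 0.56 and not called. With 1 array left out they were 0.33 to 0.39 and 0.39 to 0.53. Probe set 1389013_at had 8.97 and 9.31 post-hyperglycemia, 9.18 and 9.37 pre-hyperglycemia and 9.38 and 9.42 in BBDR.+/+, with differences of -0.26 and -0.13 that had the opposite sign. Its post-hyperglycemia arrays lay further apart than the groups did.

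**Figure D3:**
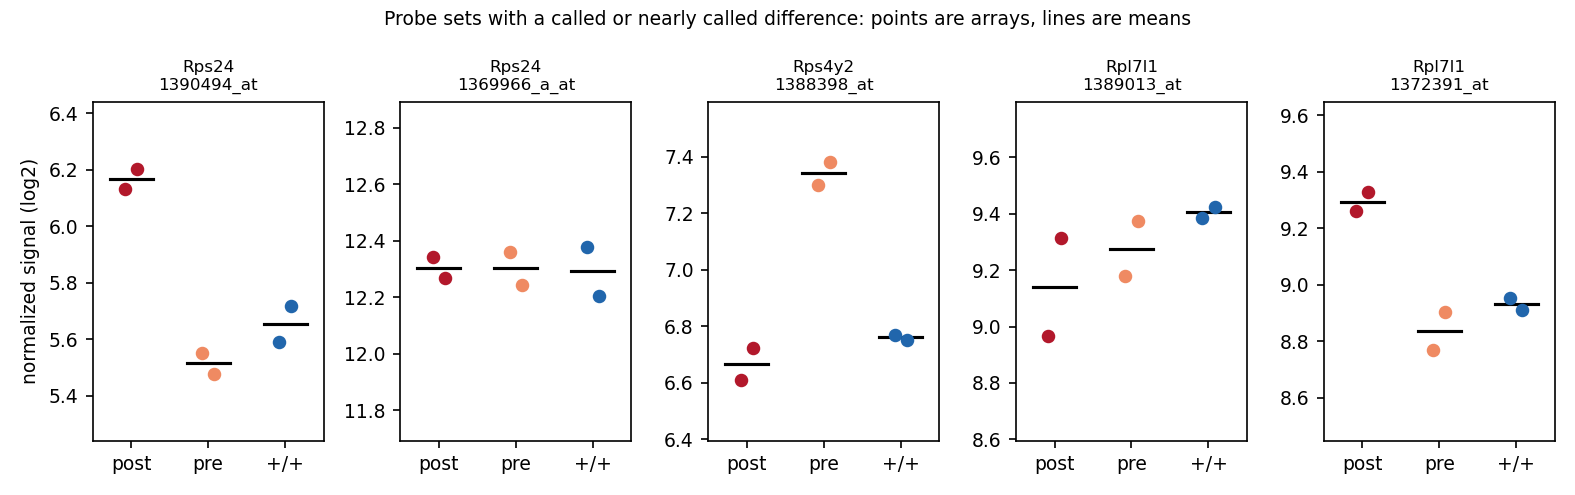
Normalized log2 signal (vertical axis, of equal span in each panel) of both Rps24 probe sets, Rps4y2 and both Rpl7l1 probe sets in post-hyperglycemia, pre-hyperglycemia and BBDR.+/+ livers, with points for arrays and lines for means of 2 arrays. The dim Rps24 probe set is at 6.13 and 6.20 post-hyperglycemia and at 5.72 or lower elsewhere, while the bright one does not separate the groups.

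Genes that build ribosomes lay higher in the post-hyperglycemia livers than the genes of the ribosomal proteins did, a difference between lists that was not tested. The biogenesis list held the small nucleolar RNP proteins, processing factors and export factors of the nucleolus, each by its brightest probe set. Of 63 measured genes, 57 were above 0 post-hyperglycemia against BBDR.+/+ (median 0.20) and 59 were above 0 against pre-hyperglycemia (median 0.22), while for pre-hyperglycemia against BBDR.+/+ 23 were above 0 (median -0.07). The 50 ribosomal protein genes, by the same choice of probe set, had medians of -0.01, -0.08 and 0.04. limma called 3 of the biogenesis genes higher and 1 lower than in BBDR.+/+, and 3 higher and 0 lower than in pre-hyperglycemia, where 5.15% and 2.18% of all probe sets were called. At an unadjusted p under 0.05 they were 21 higher and 1 lower, and 29 higher and 0 lower, where 10.7% and 7.29% of all probe sets were higher and 8.98% and 7.65% lower. The list was chosen with results of these arrays known, and its medians are given as a description.

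Nop58, a core protein of the box C/D particles that guide methylation of ribosomal RNA, had 9.07 and 9.20 post-hyperglycemia, 8.61 and 8.41 pre-hyperglycemia and 8.64 and 8.31 in BBDR.+/+. Both post-hyperglycemia arrays were above the other 4. It rose by 0.66 against BBDR.+/+ (limma, adjusted p = 0.0163, SE 0.13) and by 0.63 against pre-hyperglycemia (adjusted p = 0.0354, SE 0.13). Gar1, of the box H/ACA particles that guide pseudouridylation, had 7.64 and 7.67 post-hyperglycemia, 6.999 and 7.193 pre-hyperglycemia and 7.23 and 7.15 in BBDR.+/+, and rose by 0.46 and 0.56 (adjusted p = 0.0353 and 0.0274). Heatr1, a factor of early small subunit processing, rose by 0.62 against pre-hyperglycemia (adjusted p = 0.0200). Rrs1, which takes part in large subunit assembly, rose by 0.54 against BBDR.+/+ (adjusted p = 0.0480), and Dimt1, which methylates the small subunit RNA, was lower by -0.46 (adjusted p = 0.0451).

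These calls were close to the threshold. Against BBDR.+/+ the count of 4 was 1 without post-hyperglycemia replicate 1, 0 without post-hyperglycemia replicate 2, 2 without BBDR.+/+ replicate 1 and 0 without BBDR.+/+ replicate 2, while the median stayed between 0.15 and 0.22. Against pre-hyperglycemia, the calls of Heatr1, Gar1 and Nop58 were all lost without either post-hyperglycemia array or pre-hyperglycemia replicate 2. Those of Heatr1 and Gar1 were also lost without pre-hyperglycemia replicate 1, and that of Gar1 without either BBDR.+/+ array. The median there stayed between 0.19 and 0.27. The median of the 63 genes around their means was 0.10 and 0.17 on the post-hyperglycemia arrays, -0.07 and -0.14 on the pre-hyperglycemia arrays and -0.02 and -0.08 on the BBDR.+/+ arrays. With the 3′ minus 5′ covariate, whose range on the post-hyperglycemia arrays no other group shared, the medians were 0.0028 and 0.11 and 0 genes were called.

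The remaining lists of the translation apparatus moved less. RNA polymerase I subunits and factors, which transcribe the ribosomal RNA genes, had a median of 0.15 against BBDR.+/+ and of 0.08 against pre-hyperglycemia over 13 genes. limma called 0 of these. At an unadjusted p under 0.05, 1 was higher in each comparison, beside 10.7% and 7.29% of all probe sets. The elongation factors and other TOP messengers, which share the motif with the ribosomal proteins, had medians of 0.12 and 0.02 over 13 genes, and the initiation factors of -0.03 and 0.0089 over 30 genes. limma called 0 in each, and at an unadjusted p under 0.05 there were 1 and 2 of the first list, all higher, and 4 and 1 of the second, beside 19.7% and 14.9% of all probe sets. Of 73 mitochondrial ribosomal protein genes, 52 were above 0 against BBDR.+/+ (median 0.09) and 35 against pre-hyperglycemia (median -0.0072), and by unadjusted p under 0.05 they were 17 higher and 2 lower, and 3 higher and 1 lower. Mrps5 rose by 0.47 and Mrpl50 was lower by -0.58 against BBDR.+/+ (adjusted p = 0.0247 and 0.0290, limma), and Mrps2 rose by 0.52 against pre-hyperglycemia (adjusted p = 0.0256). The Mrps5 call was lost without any of the 4 arrays compared (0.43 to 0.51), the Mrpl50 call without post-hyperglycemia replicate 1 (-0.40) or either BBDR.+/+ array (-0.56 and -0.60), and the Mrps2 call without any of the 6 arrays (0.49 to 0.56). Dimmer probe sets differed from these, with 0.08 for Mrpl50 against BBDR.+/+ and -0.08 and -0.30 for Mrps2 against pre-hyperglycemia. Proteasome subunits, a complex of similar size taken for comparison, had medians of 0.05 and 0.0024 over 37 genes, with Psmd13 called higher (0.46) and Psma2 lower (-0.45) than in BBDR.+/+, both lost without any of the 4 arrays compared (0.41 to 0.51 and -0.57 to -0.33), and Psma2 also without either pre-hyperglycemia array.

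**Figure D4:**
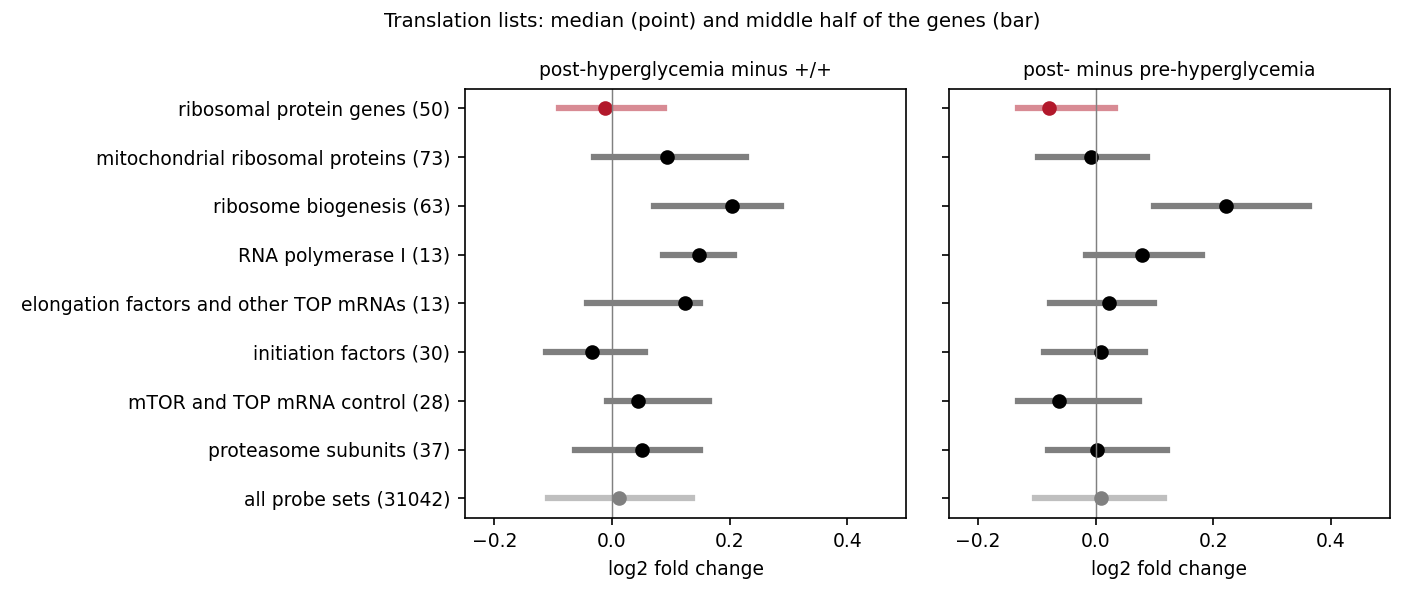
Median (points) and middle range of the log2 fold changes (bars, horizontal axis) of the ribosomal protein genes, 7 other gene lists and all probe sets, for post-hyperglycemia against BBDR.+/+ (left) and against pre-hyperglycemia (right). The ribosomal protein genes have medians of -0.01 and -0.08, and the ribosome biogenesis genes lie highest at 0.20 and 0.22.

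Of 28 genes of mTOR signalling and TOP messenger control, 0 were called by limma post-hyperglycemia against BBDR.+/+ (median 0.04, 3 higher at an unadjusted p under 0.05, beside 10.7% of all probe sets). Sesn1, an inhibitor of mTORC1, was at 8.80 and 8.74 post-hyperglycemia, 9.24 and 9.25 pre-hyperglycemia and 8.62 and 8.74 in BBDR.+/+. Like Rps4y2, it was highest in pre-hyperglycemia on this probe set. It was called lower post-hyperglycemia than pre-hyperglycemia (-0.48, adjusted p = 0.0408, limma) and higher in pre-hyperglycemia than in BBDR.+/+ (0.56, adjusted p = 0.0396). The first call was lost without any of the 6 arrays (-0.51 to -0.45) and the second without any of the 4 compared (0.51 to 0.62). A dimmer probe set of Sesn1 was lower post-hyperglycemia by -0.74 against BBDR.+/+ and by -0.97 against pre-hyperglycemia (adjusted p = 0.00625 and 0.00436), and differed by 0.23 between pre-hyperglycemia and BBDR.+/+ (adjusted p = 0.528).

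Ribosomal proteins freed from unfinished subunits are known to hold back Mdm2 and so to stabilise p53, and 10 genes of the p53 response were read beside them. Cdkn1a, the cell cycle inhibitor p21, had 8.82 and 8.74 post-hyperglycemia, 7.96 and 8.05 pre-hyperglycemia and 8.05 and 7.92 in BBDR.+/+. It rose by 0.79 against BBDR.+/+ (limma, adjusted p = 0.00219, SE 0.11) and by 0.77 against pre-hyperglycemia (adjusted p = 0.00605, SE 0.11), and both calls held with any 1 of the 6 arrays left out. A far dimmer probe set of the gene differed by 0.17 and 0.0088 and was not called. The list did not move 1 way. Phlda3, a repressor of Akt, rose by 0.62 against BBDR.+/+ (adjusted p = 0.00778), and this call was lost without BBDR.+/+ replicate 1 (0.56) or replicate 2 (0.68). Tp53inp1 was lower by -0.56 and -0.63 (adjusted p = 0.0137 and 0.0158) and Gadd45a by -0.43 against BBDR.+/+ (adjusted p = 0.0481). Post- against pre-hyperglycemia, Phlda3 differed by 0.23 and Gadd45a by 0.0020, and neither was called. Already in pre-hyperglycemia against BBDR.+/+ they differed by 0.40 and -0.43, also not called. The Tp53inp1 calls were lost without post-hyperglycemia replicate 2 (-0.53) or either BBDR.+/+ array (-0.50 and -0.63) in the first comparison and without any of the 4 arrays compared in the second (-0.70 to -0.57), and the Gadd45a call without any of the 6 arrays (-0.52 to -0.35).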

How the data were processed

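Liver RNA of 6 samples was labelled by in vitro transcription and hybridised to the Affymetrix RG230 2.0 array. Image quantification by the authors used Affymetrix Expression Console, normalization used Partek Genomic Suite, and the deposited table holds log2 values, 1 per probe set and array. Versions and algorithm: not given in the sources used here. In addition, the labels and methods name different labelling kits. The table had 31099 probe sets, 57 of them controls that stayed out of the tests. Genes were named from the platform annotation (20826 probe sets with 1 symbol) and promoters came from RefSeq, GRCr8. No dim probe sets were removed.

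limma 3.58.1 (R 4.3.3) was fitted to all 6 arrays with 1 mean per group (degrees of freedom 3 residual, 7.70 prior). A call was a Benjamini-Hochberg adjusted p under 0.05 over 31042 probe sets. Intervals are 95%. The number of arrays limits the precision. The test was checked on simulated data, where it missed some of the larger planted changes and most of the smaller ones. A difference that was not called is therefore not shown to be absent. The methods' rank product test was not run, and the methods' t-test was an alternative. Lists used the brightest probe set of each gene. Genes were named by role in the ribosome, by calls and by disagreeing probe sets, and up to 3 called genes were named per list by smallest p. Rpl12, Rpl18, Rpl39, Rps3, Rps23, Rps29 and Gadd45a were named after their values were seen. Members and lists were chosen with earlier results of these data known. Alternatives were other scalings, filters, variance models, probe set choices, a replicate block, a covariate for the 3′ minus 5′ control difference, and each array left out. Python 3.11.15, pandas 2.3.3 and matplotlib 3.10.9 drew the figures.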

Additional observations from a re-analysis of the deposited data

How the results depend on the processing

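Calls of ribosomal protein probe sets, for post-hyperglycemia against BBDR.+/+, post- against pre-hyperglycemia and pre-hyperglycemia against BBDR.+/+ (1, 2 and 1 with the settings used above), changed as follows. The methods' t-test and the 3′ minus 5′ covariate called 0 in each (11, 11 and 5, and 3, 4 and 2, at an unadjusted p under 0.05). Members with a mean of at least 10 held 0 in each. Taking the brightest probe set or the mean of the probe sets of each gene left 0 in the first comparison (6 and 9 unadjusted) and 1 in the second. An intensity trend gave 6 (4 higher, 2 lower) and 4 in these, and the top 60% by mean gave 3 in the first. Without pseudogene names and paralogs, 1 remained in the second and 0 in the third, and centring on the brightest 30% of other probe sets left 0 in the third. With 1 array left out the counts were 0 to 1, 0 to 2 and 0 to 1.

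The family's median was -0.049 with centring on the brightest 30%, 0.026 with probe sets of several symbols added and -0.029 to 0.040 with 1 array left out in the first comparison. In the second it was -0.0084 with quantile normalization, -0.080 with the top 60% or a mean of at least 10, -0.079 with the brightest probe set, -0.078 with plain probe sets only (without a, s or x suffix), -0.073 with the covariate and -0.047 to -0.014 with 1 array left out. In the third it was -0.019 with centring on the brightest 30% and 0.027 to 0.058 with 1 array left out. Scaling moved the median of all probe sets by -0.06 to 0.02.

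Over all probe sets, the t-test called 0, 0 and 1 (3362, 2790 and 2784 unadjusted) and the covariate 0, 0 and 115 (2171, 2186 and 3550). The brightest probe set gave 577 and 201 and the mean of probe sets 753 and 328 in the first 2 comparisons. An intensity trend gave 1225 and 496 in the last 2, and the 4 arrays alone 413 in the second. With 1 array left out the counts were 291 to 1567, 112 to 537 and 12 to 212. The lowest were without BBDR.+/+ replicate 2, pre-hyperglycemia replicate 2 and BBDR.+/+ replicate 2. The first split, 587 higher and 1012 lower, was 363 and 1209 with centring on the brightest 30%.

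The groups share replicate numbers 1 and 2, and deviations of same-numbered arrays correlated at 0.14, 0.11 and 0.26, but with 2 numbers this does not settle a pairing. A replicate block called 2273, 1191 and 408 probe sets, and 1, 3 and 1 ribosomal protein probe sets.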
